A study of Mus musculus with 30 samples.

Results

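The bacteria described here are the members of the order Clostridiales that were assigned to neither Ruminococcaceae nor Lachnospiraceae, among them Clostridiaceae and Christensenellaceae. They were chosen by the taxon name of each amplicon sequence variant (ASV, an exact 16S rRNA gene sequence), with at least 1 count in the 30 mice, and no measured level was used. This gave 711 of 12980 ASVs (5.48%), which held 20464 counts or 0.784% of all counts. They fell into 10 named families and 18 named genera, and 597 of the ASVs carried no family name. Feces of 30 female mice, C57BL/6 in the labels and C57BL/6J in the study's methods, labelled as 6 weeks of age, were sequenced, 6 mice in each of 5 groups. The methods give 6 weeks as the age at purchase, before acclimation and feeding, and stool was gathered when treatment ended. The control group received a normal diet and saline. The model group received a diet with 60% fructose (the HFru diet) and saline. The salidroside, tyrosol and hydroxytyrosol groups received the HFru diet with 50 mg/kg salidroside, 23 mg/kg tyrosol or 26 mg/kg hydroxytyrosol by gavage. All compounds are phenylethanoids. Salidroside is the glucoside of tyrosol, and hydroxytyrosol is tyrosol with a further hydroxyl group on the ring. The doses of tyrosol and hydroxytyrosol were set to the same molar amount as that of salidroside. Feeding lasted 8 weeks in the methods of the study and 12 weeks in its legends, and the cage of a mouse is not given in the sources used here. Every HFru group therefore shares the diet, and the comparisons with model mice share the same 6 model mice.

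Clostridiales are mostly strictly anaerobic bacteria of the gut, many of which form spores, and most stain Gram-positive, while Veillonellaceae stain Gram-negative. The dominant families of the order in the mouse colon are Lachnospiraceae and Ruminococcaceae, and the families treated here are the smaller remainder, with very different ways of life. Christensenellaceae ferment sugars and are known for their association with leanness in people, Veillonellaceae use lactate or succinate, Peptostreptococcaceae ferment amino acids, and Clostridiaceae include the sugar-fermenting, spore-forming genus Clostridium.

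Depth in the table used here, from which the authors had removed singletons, ran from 41862 to 106609 counts per mouse, so that 0 counts in a mouse allowed a share of up to 0.00281% to 0.00717%. Intervals and floors of this kind cover counting error only. Every value below is a share of the counts of a mouse, given as mean ± SD with n = 6, and a difference in shares cannot tell a change in a taxon from a change in the rest of the community. A large but variable part of that rest was Acinetobacter, an aerobic environmental genus, which took between 0.0312% and 84.2% of the counts of a mouse. Its mean share was 20.5% ± 25 in control, 53.5% ± 30.3 in model, 32.4% ± 29.8 in salidroside, 47.3% ± 30.2 in tyrosol and 11.2% ± 17.5 in hydroxytyrosol mice. The part of Acinetobacter in the differences below was not tested beyond recomputing them without its counts.

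The summed share of the 711 ASVs was a small part of each community and varied widely between mice of a group. It ranged from 0.256% to 2.55% in control mice (1.16% ± 1.02) and from 0.0174% to 0.71% in model mice (0.397% ± 0.262). In the salidroside group it ranged from 0.162% to 1.06% (0.556% ± 0.298), in the tyrosol group from 0.389% to 2.51% (1.19% ± 0.802), and in the hydroxytyrosol group from 0.365% to 1.25% (0.745% ± 0.387). All 5 groups overlapped, and the control group split into mice 3, 4 and 5 above 1.5% and mice 1, 2 and 6 near 0.3%. With Acinetobacter taken out of the totals the mean was 1.34% ± 1.01 in control, 1.04% ± 1.05 in model, 1.01% ± 0.627 in salidroside, 2.67% ± 1.5 in tyrosol and 0.837% ± 0.359 in hydroxytyrosol mice, so the salidroside and hydroxytyrosol groups changed from above to below the model group. Of the counts of the whole order, these families held 32.9% ± 13.1 in control, 15.5% ± 9.98 in model, 15.4% ± 4.95 in salidroside, 22.9% ± 5.16 in tyrosol and 12.1% ± 3.02 in hydroxytyrosol mice.

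**Figure D1:**
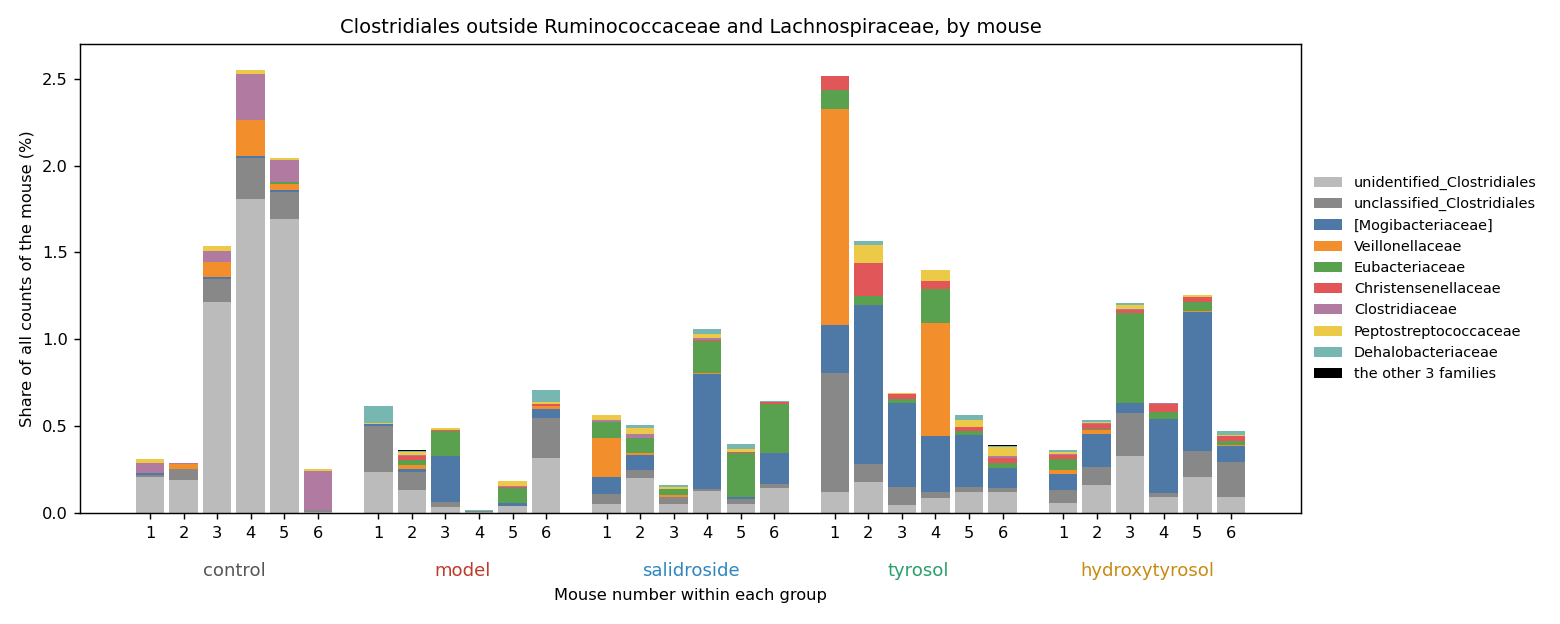
Each bar is 1 mouse, and its height is the share (percent) of all counts taken by the Clostridiales outside Ruminococcaceae and Lachnospiraceae, stacked by family. Grey parts (ASVs without a family name) filled most of the bars of control mice 3, 4 and 5, [Mogibacteriaceae] most of the named part in tyrosol mice 2, 3 and 5, and Veillonellaceae stood out in tyrosol mice 1 and 4.

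The ASVs were sparse, as were most ASVs of the whole series. Of the 711, 563 (79.2%) were seen in 1 mouse only, 49 in at least 4 mice and 5 in all 5 groups. In 2 or more mice 148 of the 711 were seen, and 3750 of all 12980 ASVs. The most widespread ASV, ASV_26079 of [Mogibacteriaceae], was seen in 19 of 30 mice. Of the 711, 200 were seen in control mice only, 484 in HFru mice only and 27 in both. An ASV seen in 1 mouse cannot be shared, and among the 148 seen in 2 or more mice 28 were in control mice only, 93 in HFru mice only and 27 (18.2%) in both, where 1298 (34.6%) of all 3750 ASVs seen in 2 or more mice were in both. Most tests below were therefore made on families and genera, with edgeR's quasi-likelihood test on counts, over those taxa that reached 10 counts in 4 or more of the 12 mice compared, and p-values were adjusted over all taxa of the level. A taxon with an adjusted p under 0.05 is said to have passed.

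Between 2 groups 10 members passed, and each of the 10 reached 10 counts in mice of the higher group only. Their entry into the test thus depended on the difference itself, so their number is a description and supports nothing, and their values in the fit without a count filter are given beside them. In that fit 4 of the 10 passed, namely Clostridiaceae, unidentified Peptostreptococcaceae and unidentified Veillonellaceae in model against control and Christensenella in tyrosol against model.

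Across the 5 groups 5 of the 9 member families tested passed in edgeR, where 53.4% of all 73 families tested did. They were Christensenellaceae and Clostridiaceae (adjusted p = 0.000525 each), [Mogibacteriaceae] (adjusted p = 0.0169), Eubacteriaceae and the ASVs called unidentified_Clostridiales (adjusted p = 0.0192 each). By a rank-based permutation test (Kruskal-Wallis statistic, 100000 resamples) the named families passed again, with adjusted p = 0.00073 for Christensenellaceae, 0.0119 for Clostridiaceae, 0.00803 for [Mogibacteriaceae] and 0.0119 for Eubacteriaceae, while unidentified_Clostridiales had adjusted p = 0.354. By that test 17.8% of all families passed. Among the genera, 9 of the 12 members tested passed in edgeR, where 45% of all 140 genera did. Peptostreptococcaceae, Veillonellaceae, Dehalobacteriaceae and unclassified_Clostridiales did not pass as families (edgeR adjusted p = 0.532, 0.0922, 0.0795 and 0.64).

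**Figure D2:**
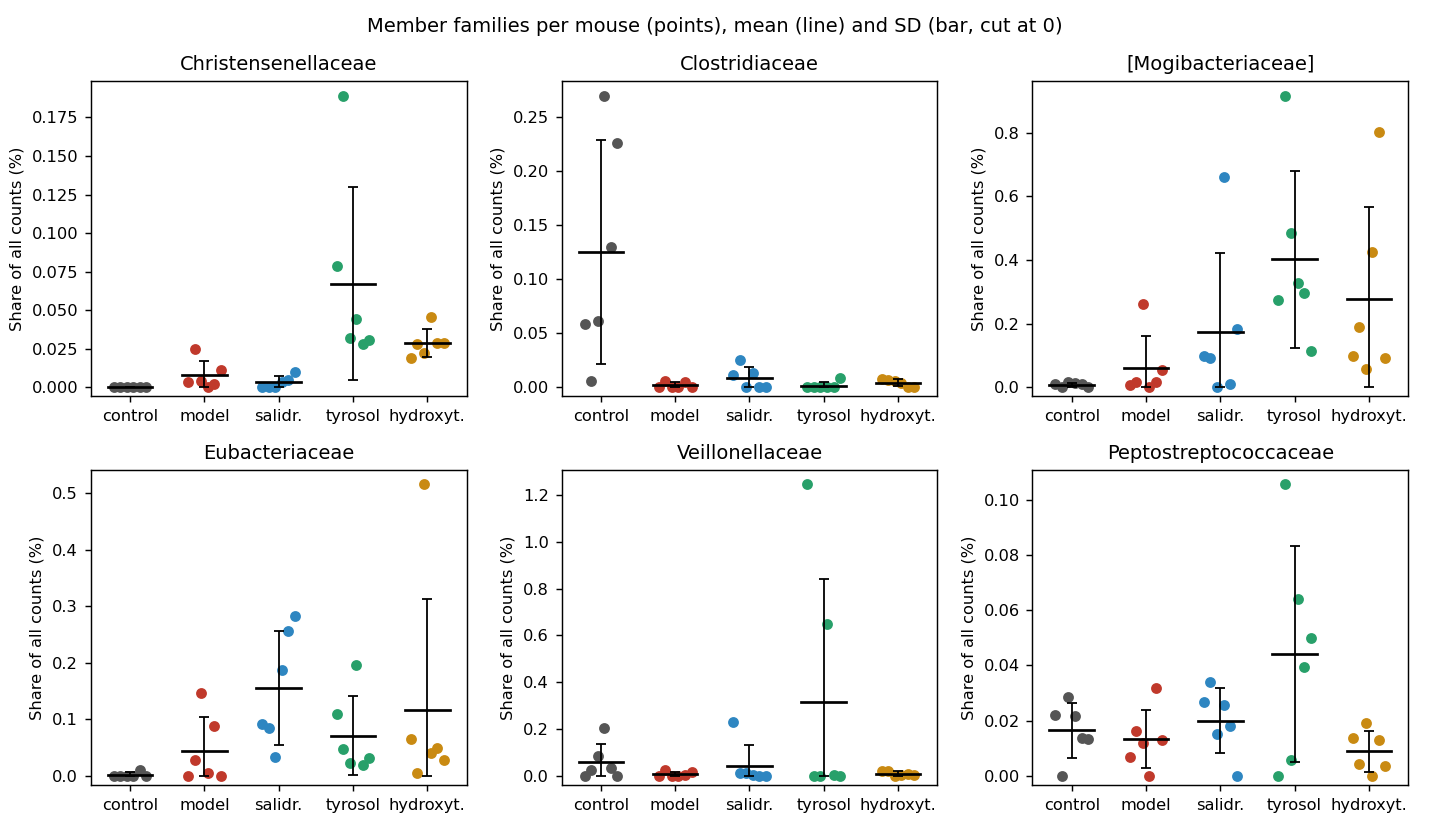
Points are the shares (percent of all counts) of 6 families in each of the 6 mice of a group, lines are means and bars are SD, cut at 0. Christensenellaceae were at 0 in the 6 control mice and above every salidroside mouse in the 12 tyrosol and hydroxytyrosol mice, and Clostridiaceae were high in control mice.

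The first comparison, model against control, asked what the HFru diet did. Clostridiaceae, which in these mice were almost wholly the genus Clostridium, fell in model mice. Control mice held between 4 and 189 counts of the family (median share 0.0952%), and model mice between 0 and 5 counts (median 0). The shares were 0.125% ± 0.104 in control and 0.0017% ± 0.00264 in model mice, and they did not overlap, although control mouse 2, with 4 counts, lay just above the highest model mouse. The fitted change was -5.86 on the log2 scale (SE 1.87, adjusted p = 0.0236 in edgeR), and of the 6 member families tested this 1 passed, where 17.2% of all 58 families did and 8.62% fell. Without the count filter, where 8.28% of all 169 families passed, the change was -6.14 (adjusted p = 0.015). DESeq2 called 30.8% of the families with an adjusted p, among them Clostridiaceae and [Mogibacteriaceae]. The median change of the 6 member families tested was -0.44, against 0.60 over all families. An exact permutation test of the mean shares gave p = 0.0022, the smallest that 6 against 6 mice allow, and adjusted p = 0.0314, where 6.9% of the families passed. Non-overlapping shares were found in 6.9% of the families. The call was lost without model mouse 1 (adjusted p = 0.0526) or model mouse 3 (adjusted p = 0.0534), both of which had 0 counts, and without Acinetobacter counts the family passed (edgeR adjusted p = 0.0202).

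The genus Clostridium carried this fall. It held between 4 and 189 counts in control mice (0.122% ± 0.103) and between 0 and 5 in model mice (0.0017% ± 0.00264), again without overlap (as in 6.19% of the genera), and its change was -6.41 (SE 1.91, edgeR adjusted p = 0.0125, and 0.0513 without the count filter). Its 18 ASVs included 2 named Clostridium celatum (143 counts in 5 control mice, 5 counts in 1 model mouse) and 3 named Clostridium paraputrificum (165 counts in 2 control mice, 160 of them in 1 mouse, none in the other 28 mice), both known as sugar-fermenting gut species. ASV_38923 of Clostridium celatum was seen in 4 control mice (7 to 73 counts) and in no HFru mouse. The other, ASV_45393, named after its values were seen, had 5 counts in 1 control mouse and 30 in 3 salidroside mice. It had 5, 3 and 2 counts in model, tyrosol and hydroxytyrosol mice. Candidatus_Arthromitus, the segmented filamentous bacteria that attach to the ileal wall of mice, had 12 counts in all, from 2 control mice. Of the 12 Clostridiaceae genera listed for this work, 2 had counts and 1, Clostridium, reached the count filter between model and control, through control mice only.

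At the genus level 3 of 6 member genera tested passed between model and control, where 17.5% of all 97 genera did, 7.22% higher and 10.3% lower. Without the count filter 5.92% of all 338 genera passed. Besides Clostridium, unidentified Veillonellaceae fell and unidentified Peptostreptococcaceae rose. Unidentified Veillonellaceae held 0, 18, 70, 85, 25 and 0 counts in control mice 1 to 6 and 0 in every model mouse, so the fall was at least 18.6-fold (9.19-fold without control mouse 4, edgeR adjusted p = 0.00479, and 0.0159 without the count filter), taking 3 counts as the floor of a model mouse. The group was ASV_15190 with all of those counts, and as an ASV it was the only member tested between model and control and passed (edgeR adjusted p = 0.00551, and 0.0936 without the count filter), where 30.4% of all 411 ASVs did. Since control mice 1 and 6 had none, the ranges overlapped at 0, and the exact permutation test of the genus did not pass (adjusted p = 0.168).

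Unidentified Peptostreptococcaceae went the other way. They had 0 counts in the 6 control mice and between 0 and 27 counts in model mice (0.012% ± 0.00874), with model mouse 4 at 0, a rise of at least 2.69-fold (2.07-fold without model mouse 5, edgeR adjusted p = 0.0125, and 0.0402 without the count filter, exact permutation adjusted p = 0.0735). Within the same family, unclassified Peptostreptococcaceae showed 7 to 13 counts in 5 of 6 control mice (0.0128% ± 0.00764), and 0.00129% ± 0.00232 in model mice, but were too few to be tested. The family as a whole was 0.0164% ± 0.00993 in control and 0.0132% ± 0.0106 in model mice (edgeR adjusted p = 0.783). The distinction between "unidentified" and "unclassified" is that of the deposited taxonomy.

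[Mogibacteriaceae], a poorly cultured family of the gut and mouth written in brackets in the taxonomy, lay near the threshold between model and control. With the 12 mice of this comparison it did not pass in edgeR, and it passed with all 30 mice in 1 edgeR model (log2 change 4.09, adjusted p = 0.0201, where 31% of the families passed) and in DESeq2 (adjusted p = 0.0118). Its shares were 0.00752% ± 0.00633 in control and 0.0591% ± 0.1 in model mice, with 0 to 13 and 0 to 264 counts (edgeR adjusted p = 0.0513). The model mean rested largely on model mouse 3, with 264 of 357 counts, and the groups overlapped. In edgeR the family also passed without control mouse 3 (adjusted p = 0.0458), control mouse 6 (adjusted p = 0.033) or model mouse 4 (adjusted p = 0.0371). Christensenellaceae, Dehalobacteriaceae and Eubacteriaceae did not reach the count filter in this comparison. Without the filter Eubacteriaceae passed (log2 change 5.76, edgeR adjusted p = 0.0396), as did their genus Pseudoramibacter_Eubacterium (log2 change 6.48, adjusted p = 0.0402), where 8.28% of all families and 5.92% of all genera passed. Christensenellaceae were at 0 in all control mice and had 0 to 23 counts in model mice, Dehalobacteriaceae had 2 counts in 1 control mouse and 0 to 82 in model mice, and Eubacteriaceae had 8 counts in 1 control mouse and 0 to 148 in model mice.

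The next comparisons set each compound against model mice. With tyrosol the genus that passed was Christensenella, the type genus of its family. Model mice, like control mice, had 0 counts of the genus, and tyrosol mice had 39, 88, 31, 47, 14 and 27 counts (0.0409% ± 0.0236). The groups did not overlap, the rise was at least 13.2-fold (10.4-fold without tyrosol mouse 2, edgeR adjusted p = 0.00549, and 0.00519 without the count filter), and of the 8 member genera tested this 1 passed, where 1.94% of all 103 genera did, and 3.51% of all 342 genera without the filter. Non-overlapping shares were found in 3.88% of these genera. The exact permutation test of mean shares gave p = 0.0022 and adjusted p = 0.0557 over the genera.

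At the family level Christensenellaceae were higher in each tyrosol mouse (27 to 199 counts, 0.0671% ± 0.0627) than in any model mouse (0 to 23 counts, 0.00752% ± 0.00929), but the fit gave 2.81 on the log2 scale (95% interval 0.29 to 5.33) with adjusted p = 0.132 in edgeR, while the exact permutation test gave adjusted p = 0.0325. Of the 8 member families tested between tyrosol and model 0 passed in edgeR, with 2 at an unadjusted p under 0.05, where 3.33% of all 60 families passed. By the exact permutation test 1 member family passed, Christensenellaceae, where 6.67% of the families did. Shares of 6.67% of the families did not overlap. DESeq2 also called Christensenellaceae (adjusted p = 0.0173), where it called 14.8% of the families, and so did limma on centred log-ratios (adjusted p = 0.0204, 10% of the families). With Acinetobacter left out the log2 change was 2.80. The median change of the 8 member families tested was 0.67, against -1.07 over all families.

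Of the 9 member ASVs tested between tyrosol and model 2 passed, where 8.49% of all 424 ASVs passed. ASV_15743 (Christensenella) was at 0 in model mice and at 27, 67, 31, 13, 0 and 20 counts in tyrosol mice 1 to 6, at least 8.49-fold higher (6.07-fold without tyrosol mouse 2, edgeR adjusted p = 0.0199, 0.0567 without model mouse 3, 0.142 without the count filter and 0.0856 on centred log-ratios). ASV_27816 (Pseudoramibacter_Eubacterium, a name for fermenters of the family Eubacteriaceae) was at 0 in model mice and between 19 and 108 counts in each tyrosol mouse, at least 16.1-fold higher (12.7-fold without tyrosol mouse 4, edgeR adjusted p = 0.0138, and 0.142 without the count filter).

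Among the families treated here, [Mogibacteriaceae] were the most abundant named family in tyrosol mice. They had between 99 and 965 counts there (0.402% ± 0.279) against 0 to 264 in model mice (0.0591% ± 0.1), and the tyrosol mouse was the higher in 35 of 36 pairs of mice. The difference did not pass in edgeR (adjusted p = 0.397) and came to adjusted p = 0.0519 in the exact permutation test. On centred log-ratios with limma it passed (log2 change 4.26, adjusted p = 0.0205), where 10% of the families did. Veillonellaceae had 0.316% ± 0.524 in tyrosol mice, from 1125 counts in mouse 1 and 688 in mouse 4 with at most 2 in the other 4 mice, and 0.00677% ± 0.00995 in model mice (edgeR adjusted p = 0.107). Without the count filter, where 4.07% of all 172 families passed, Veillonellaceae did (adjusted p = 0.00766).

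Hydroxytyrosol mice held Christensenellaceae within a narrow range. The 6 mice had 19, 20, 22, 38, 24 and 25 counts (0.0285% ± 0.00919), the model mice 3, 23, 4, 0, 2 and 11, and the hydroxytyrosol mouse was the higher in 34 of 36 pairs. The difference did not pass (1.48 on the log2 scale, 95% interval -0.77 to 3.72, edgeR adjusted p = 0.456, exact permutation adjusted p = 0.0639). Christensenella had 0 to 35 counts in hydroxytyrosol mice (0.0145% ± 0.016), with only mouse 3 at 0, but only 3 mice reached 10 counts and the genus was not tested. Of 8 member families and 7 member genera tested 0 passed in edgeR, with 0 of either at an unadjusted p under 0.05 where 11.9% of all 59 families and 4.95% of all 101 genera passed. DESeq2 called 0 of either, where it called 20% of the families and 13.8% of the genera. Without the count filter 1 member genus, Christensenella, passed (edgeR adjusted p = 0.0246), where 5.57% of all 341 genera did.

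Of the 8 member ASVs tested between hydroxytyrosol and model 1 passed, where 32.8% of all 290 ASVs did. ASV_7890 of [Mogibacteriaceae] was at 0 in model mice and at 12, 7, 35, 10, 52 and 4 counts in hydroxytyrosol mice, at least 7.26-fold higher (4.74-fold without hydroxytyrosol mouse 5, edgeR adjusted p = 0.00425, and 0.104 without the count filter). The family [Mogibacteriaceae] had 57 to 679 counts in these mice (0.277% ± 0.29, edgeR adjusted p = 0.532 against model).

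Salidroside against model gave no member that passed. Of the 6 families, 7 genera and 8 ASVs tested 0 passed in edgeR, and 0 of each had an unadjusted p under 0.05, where 13.2% of all 53 families, 4.12% of all 97 genera and 4.19% of all 358 ASVs passed. DESeq2 called 0 of each, where it called 18.4% of the families, 8.05% of the genera and 6.77% of the ASVs. Eubacteriaceae had the highest mean of the 5 groups here, with 31 to 259 counts (0.156% ± 0.101) against 0 to 148 in model mice (0.0441% ± 0.0601), and the salidroside mouse was the higher in 31 of 36 pairs (edgeR adjusted p = 0.558, exact permutation p = 0.0476 and adjusted p = 0.315). Christensenellaceae were near the floor in salidroside mice, with 0, 0, 0, 3, 4 and 9 counts (0.00297% ± 0.0039), and were not tested against model. Clostridiaceae had 0 to 11 counts (0.00809% ± 0.0101) and did not reach the filter against model in any HFru group.

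**Figure D3:**
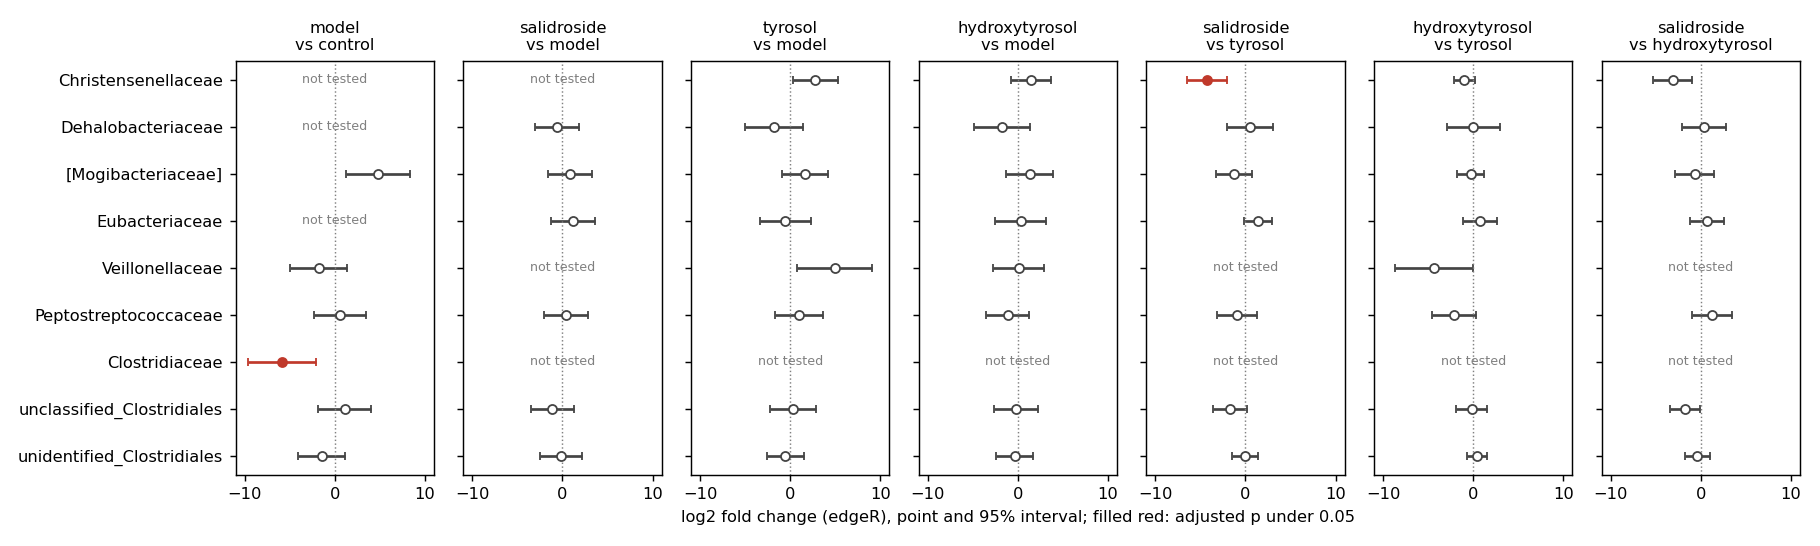
Points are edgeR log2 fold changes of the member families in the 7 comparisons and bars are 95% intervals. Filled red points passed (Clostridiaceae in model against control, Christensenellaceae in salidroside against tyrosol), and families under the count filter are marked as not tested.

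The compounds were then compared with each other at their molar-matched doses, in 3 pairs. Christensenellaceae were lower with salidroside than with its aglycone tyrosol in every fit, with log2 changes of -4.60 to -4.06 under the alternatives. Whether they passed depended on the fit, and the family reached the count filter through the tyrosol mice only. Salidroside mice had at most 9 counts of the family and tyrosol mice at least 27, so the shares did not overlap (0.00297% ± 0.0039 against 0.0671% ± 0.0627), as happened in 2.04% of all 49 families. The change was -4.27 on the log2 scale (SE 1.06, 95% interval -6.49 to -2.06, edgeR adjusted p = 0.0314, and 0.0494 when adjusted over the 3 pairs together). The family did not pass without the count filter (adjusted p = 0.0942), with all 30 mice in 1 edgeR model (adjusted p = 0.0619) or with a replicate block. With the filter it passed in DESeq2 (adjusted p = 8.41e-05, 8.33% of the families) and on centred log-ratios with limma (adjusted p = 0.00277, 2.04%). In edgeR it passed on the rarefied table (adjusted p = 0.00888, 2.44%), without TMM (adjusted p = 0.046, 2.04%) and without Acinetobacter (adjusted p = 0.0455, 2.04%). Of the 7 member families tested this 1 passed, where 2.04% of all families did. The exact permutation test gave p = 0.0022, the smallest that 6 against 6 mice allow, and adjusted p = 0.106. At that p 1 family alone cannot pass after adjustment over 49 families. The direction held without each mouse in turn, but the adjusted p was over 0.05 in 7 of these 12 fits, those without salidroside mice 1 to 5 and tyrosol mice 1 and 2, with a range of 0.0103 to 0.109 over the 12.

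Salidroside and hydroxytyrosol mice also did not overlap in Christensenellaceae, with at most 9 and at least 19 counts, as happened in 2% of all 50 families. The change of -3.14 (95% interval -5.28 to -1.0) did not pass in edgeR (adjusted p = 0.152, and 0.141 over the 3 pairs), and the exact permutation test gave p = 0.0022 and adjusted p = 0.108. That p is the smallest that 6 against 6 mice allow, and 1 family alone cannot pass at it over 50 families. Of the 7 member families tested in this pair 0 passed, with 2 at an unadjusted p under 0.05, and 0% of all families did. DESeq2 called 1 member family, Christensenellaceae (adjusted p = 0.0175), where it called 6% of the families. The family also passed in edgeR on the rarefied table (adjusted p = 0.0199, 2.5% of the families) and on centred log-ratios with limma (adjusted p = 0.0315, 2% of the families). It reached the count filter of these fits through the hydroxytyrosol mice only. Without the filter 0 of all 150 families passed in edgeR.

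Tyrosol and hydroxytyrosol, which differ by a hydroxyl group, gave no member family that passed in edgeR with the count filter. Christensenellaceae changed by -0.98 in hydroxytyrosol against tyrosol, with a 95% interval of -2.17 to 0.22 (edgeR adjusted p = 0.318). The interval runs from a fall to a small rise, and a p over the threshold does not show that the compounds act alike. [Mogibacteriaceae] changed by -0.27 (95% interval -1.79 to 1.25) and Eubacteriaceae by 0.74 (95% interval -1.14 to 2.62). Of the 8 member families tested 0 passed, with 1 at an unadjusted p under 0.05, where 1.82% of all 55 families passed. That 1 was Veillonellaceae (edgeR adjusted p = 0.265), from the high counts of tyrosol mice 1 and 4, and DESeq2 called it (adjusted p = 0.038), as it did 18.9% of the families. Without the count filter it passed too (adjusted p = 0.00877), as did 2.7% of all families.

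Genera and ASVs gave few calls between compounds. In edgeR 0 of 8, 8 and 7 member genera passed in salidroside against tyrosol, hydroxytyrosol against tyrosol and salidroside against hydroxytyrosol, with 1, 0 and 1 at an unadjusted p under 0.05, where 0%, 1.04% and 0% of all genera passed. Christensenella had 5 counts in 1 salidroside mouse and 14 to 88 in each tyrosol mouse, without overlap (as in 1.09% of the genera, log2 change -5.12, 95% interval -7.88 to -2.36, edgeR adjusted p = 0.0986), and DESeq2 called it (adjusted p = 0.00249), as it did 5.95% of the genera. Without salidroside mouse 6, which held the 5 counts, the fitted change was -8.10 and passed in edgeR (adjusted p = 0.00978), against a salidroside group then at 0. It also passed in edgeR on the rarefied table (adjusted p = 0.0466, 2.47% of the genera) and on centred log-ratios with limma (adjusted p = 0.00435, 1.09% of the genera). The genus reached the count filter of these fits through the tyrosol mice only. Without the filter it did not pass in edgeR, where 1.85% of all 271 genera did. Of 11, 12 and 11 member ASVs tested in the 3 pairs 0 passed in edgeR, with 2, 0 and 1 at an unadjusted p under 0.05, where 0%, 27% and 10.7% of all ASVs passed. ASV_27816 was at 0 in every salidroside mouse and in every tyrosol mouse at 19 counts or more, at least 12.3-fold lower with salidroside (9.73-fold without tyrosol mouse 4, edgeR adjusted p = 0.0701). Adjusted over the ASVs of the 3 pairs together it passed (adjusted p = 0.0227, 3.05% of the ASVs), an adjustment chosen after the data were seen. DESeq2 called it (adjusted p = 6.18e-05, 1.35% of the ASVs), and it passed in edgeR without Acinetobacter (adjusted p = 0.0319, 1.91%). It reached the count filter through the tyrosol mice only, and without the filter it did not pass in edgeR (0.0191% of the ASVs did).

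**Figure D4:**
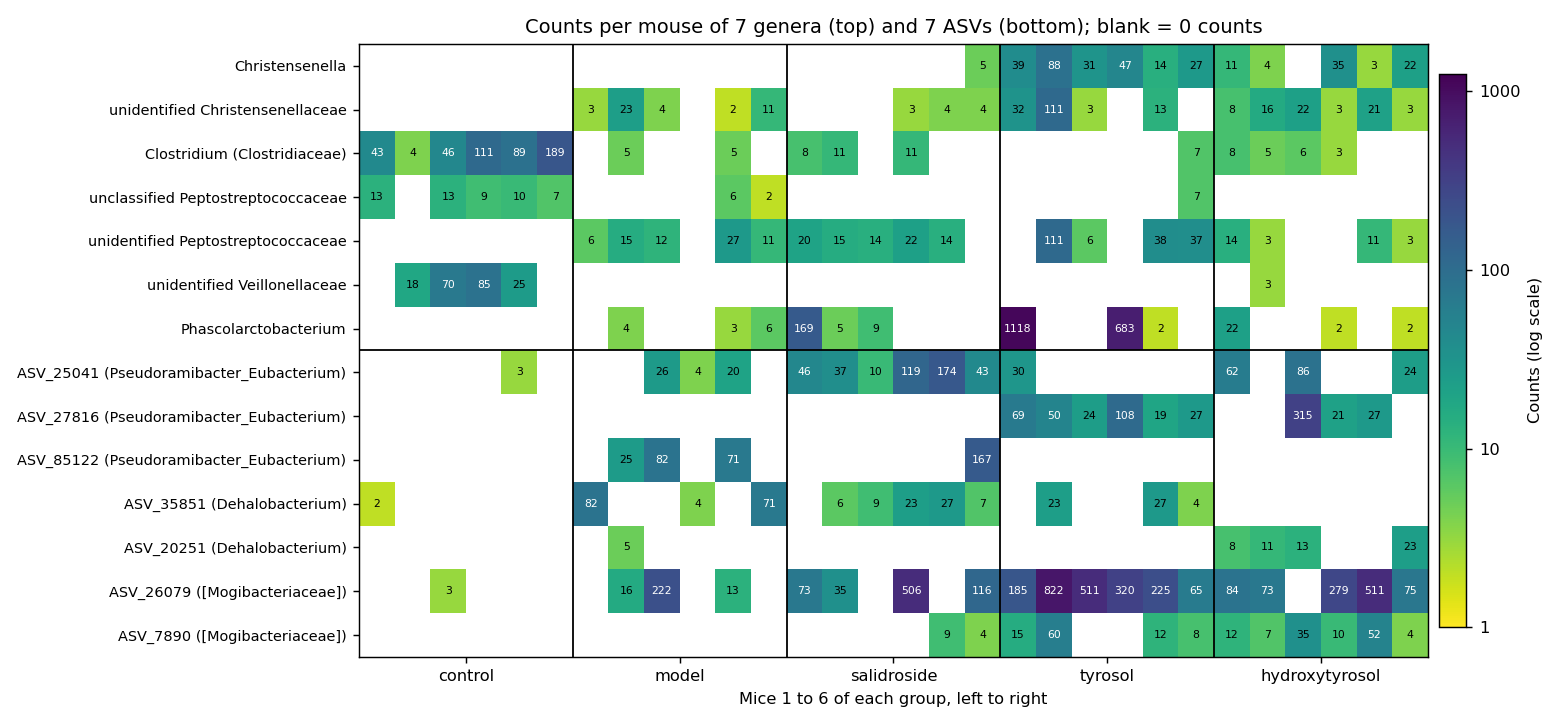
Cells give the counts of 7 genera (top) and 7 ASVs (bottom) in each of the 30 mice, coloured on a log scale, with blank cells for 0 counts. Clostridium, unclassified Peptostreptococcaceae and unidentified Veillonellaceae had counts in 6, 5 and 4 of the 6 control mice. Christensenella had counts in 6 tyrosol and 5 hydroxytyrosol mice, and ASV_27816 in 6 and 3.

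Within some families, but not all, different ASVs led the counts in different groups, and this was not tested as such. The ASVs ASV_12488, ASV_57768, ASV_85122, ASV_20251, ASV_4146, ASV_28679 and ASV_62818 below, and the genera with under 10 counts, were named after their values were seen. Christensenellaceae held 13 ASVs, 3 of Christensenella (326 counts) and 10 without a genus name (286 counts). All 43 counts of model mice belonged to the unnamed part, whereas in tyrosol mice 246 of 405 counts were Christensenella and in hydroxytyrosol mice 75 of 148. ASV_15743 and ASV_12488 were the main ASVs of Christensenella. ASV_12488 was seen in 5 tyrosol mice (7 to 34 counts) and 4 hydroxytyrosol mice (4 to 21 counts) and in no other mouse, and ASV_57768, without a genus name, in 2 model mice (4 and 23 counts) and 4 hydroxytyrosol mice (3 to 16 counts).

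Eubacteriaceae were at 0 in 5 of 6 control mice and present in 22 of the 24 HFru mice, by 2 genera. Pseudoramibacter_Eubacterium had 12 ASVs and 1879 counts, and 3 of its ASVs were spread unevenly over the HFru groups. ASV_25041 was seen in each salidroside mouse (10 to 174 counts, 0.0898% ± 0.0673), in 3 model and 3 hydroxytyrosol mice, and in 1 tyrosol mouse. ASV_27816 was seen in each tyrosol mouse and in 3 hydroxytyrosol mice (21, 27 and 315 counts) and in no control, model or salidroside mouse. ASV_85122 was seen in 3 model mice (25, 71 and 82 counts) and 1 salidroside mouse (167 counts). Pseudoramibacter_Eubacterium as a genus came to 0.0375% ± 0.0475 in model and 0.0552% ± 0.0403 in tyrosol mice (edgeR adjusted p = 0.961). Anaerofustis, the other genus, was seen in 8 mice, with 3 to 5 of the 6 mice at 0 in each group.

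Dehalobacterium, the only genus seen of Dehalobacteriaceae and named for a relative that grows on dichloromethane, was in 1 control mouse (2 counts) and 16 HFru mice. It reached 82 and 71 counts in model mice 1 and 6 (0.029% ± 0.0418), and the means of the compound groups were 0.0147% ± 0.0117, 0.00943% ± 0.0124 and 0.0104% ± 0.01 in salidroside, tyrosol and hydroxytyrosol mice (edgeR adjusted p of the genus = 0.819, 0.563 and 0.499 against model). ASV_35851 made up all of it in salidroside mice and was not seen in hydroxytyrosol mice, where ASV_20251 made up all of it (8, 11, 13, 0, 0 and 23 counts). Outside the hydroxytyrosol group ASV_20251 was seen in 1 model mouse (5 counts). Neither ASV reached the count filter in hydroxytyrosol against model.

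[Mogibacteriaceae] had 29 ASVs and 5118 counts, none with a genus name, and ASV_26079 held 4134 of them. In control mice ASV_26079 had 3 counts in 1 mouse, in model mice 0, 16, 222, 0, 13 and 0 counts, and in tyrosol mice 185, 822, 511, 320, 225 and 65 counts. The lowest tyrosol mouse was above every model mouse but mouse 3 (log2 change 3.45, SE 1.80, edgeR adjusted p = 0.394). On centred log-ratios it passed (log2 change 5.40, limma adjusted p = 0.0249), where 7.55% of the ASVs did. In salidroside mice it was seen in 4 mice and in hydroxytyrosol mice in 5. It also passed on centred log-ratios in hydroxytyrosol against model (log2 change 4.78, limma adjusted p = 0.0455), where 39% of the ASVs did.

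Veillonellaceae were led by different genera in the control and the HFru mice. All 198 counts of control mice belonged to ASV_15190, which was seen in no HFru mouse, while another ASV of the same unidentified genus had 3 counts in 1 hydroxytyrosol mouse. Phascolarctobacterium, which turns succinate into propionate, had 0 counts in control mice and 1118 and 683 in tyrosol mice 1 and 4, 169 in salidroside mouse 1 and at most 22 in any other mouse. The genus had 2025 counts in 12 mice, 2003 of them from ASV_1886, and it did not reach the filter in any pair of groups. Without the filter it passed in tyrosol against model (log2 change 7.05, edgeR adjusted p = 0.00299), where 3.51% of all genera did. Across the 5 groups it passed in edgeR (adjusted p = 0.00472) and did not by the permutation test of ranks (adjusted p = 0.462). The remaining genera of the family were each seen in 1 to 3 mice, with 8 counts for Dialister, 10 each for Selenomonas and for the lactate user Veillonella, 13 for Succinispira and 19 for Megamonas. Succinispira was seen in the same 3 mice as the high counts of Phascolarctobacterium, with 7, 5 and 1 counts. Of the 9 genera of lactate, succinate or sugar fermenters listed for this work, 5 had counts and 0 reached the count filter in a comparison of 2 groups.

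Peptostreptococcaceae had 0.02% ± 0.0119 in salidroside, 0.044% ± 0.0391 in tyrosol and 0.00891% ± 0.00744 in hydroxytyrosol mice, and no comparison passed. The unidentified genus that was missing from control mice was seen in 18 of 24 HFru mice and was led by ASV_1844 (308 of 379 counts). ASV_4146 of the unclassified genus was seen in 5 control mice (7 to 13 counts) and in no HFru mouse. The ASVs named [Clostridium] difficile gave 11 counts in 1 control mouse, 68 in tyrosol mouse 4 and 19 in hydroxytyrosol mouse 3.

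The remaining named families were at the edge of detection. Peptococcaceae had 13 counts in 3 mice, Syntrophomonadaceae 4 counts of Syntrophomonas, a fatty acid oxidiser, in tyrosol mouse 2, and [Tissierellaceae] 3 counts of Sedimentibacter in model mouse 2. Of 10 genera of peptide-fermenting cocci and relatives listed for this work, 0 had counts. Of the 6 genera listed as rodent gut commensals 4 had counts, and at most 2 reached the count filter in a comparison. In tyrosol against model 1 of the 2 passed in edgeR, Christensenella, where 1.94% of all genera did, and none passed in the other comparisons.

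ASVs that were named to the order only held 43% of the counts of these bacteria. Those called unidentified_Clostridiales (419 ASVs, 6007 counts) had 0.853% ± 0.814 in control mice, with 7, 136, 154, 757, 1019 and 1251 counts in the 6 mice, and between 0.105% ± 0.0643 and 0.156% ± 0.101 in the HFru groups. Model against control did not pass (0.127% ± 0.126 in model mice, edgeR adjusted p = 0.416, exact permutation adjusted p = 0.217), and control mice 1, 2 and 6 lay within the range of the model mice. Of these ASVs 160 were seen in control mice and 63 to 94 in each HFru group. ASV_32647 had 214 and 334 counts in control mice 3 and 4 and none elsewhere, and ASV_28679 and ASV_62818 were seen in 4 and 5 control mice and in no HFru mouse. Those called unclassified_Clostridiales (178 ASVs, 2788 counts) ranged from 0.0341% ± 0.0149 in salidroside to 0.163% ± 0.26 in tyrosol mice, the latter with 621 of 921 counts from tyrosol mouse 1, and were 0.133% ± 0.0842 in hydroxytyrosol mice (-1.75 on the log2 scale in salidroside against hydroxytyrosol, 95% interval -3.45 to -0.06, edgeR adjusted p = 0.308).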

How the data were processed

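Fecal 16S rRNA gene amplicons of 30 mice were used, and the pioglitazone group of the study was not analysed here. The methods of the study give FLASH for handling the raw tags, QIIME for quality control and UCHIME for chimera removal. They then describe grouping by similarity into operational taxonomic units. The deposited read log instead lists filtering, denoising, merging, chimera removal and singleton removal, in that order, and the deposited tables name ASVs. In all 30 mice the total counts used here equalled the reads left after the last step of that log. How the steps named in the methods relate to it is not stated. The authors deposited raw counts per ASV and sample (the version of the taxonomy is not given in the sources used here). Low total counts of rare taxa make their shares imprecise, and PCR copies are not independent molecules. Mice were grouped by the labels and numbered by their titles. In the model, salidroside and hydroxytyrosol groups these numbers differ from those of the count columns for some mice. The replicate block used the title numbers. The members, lists and tests were chosen with earlier results of these data known.

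Counts were summed per family and genus. Taxa that reached 10 counts in 4 or more of the 12 mice were fitted with edgeR 4.0.16 (TMM, quasi-likelihood, R 4.3.3), with Benjamini-Hochberg adjustment over all taxa of the level and a threshold of 0.05. Exact two-sided permutation tests of mean shares covered all 924 splits of 12 mice. The alternatives were other scalings, filters and tables, DESeq2 1.42.0, centred log-ratios (0.5 added) with limma 3.58.1, leaving out Acinetobacter or each mouse, and a replicate block. The adjustment over the 3 compound pairs was added after the data were seen. The edgeR step was also run on simulated data, and the outcome is not given here. Every member family, genera with at least 10 counts, leading ASVs of tested families, the 5 most abundant ASVs and taxa that passed were named. A fold against a group at 0 was taken against 3 counts per mouse.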

Additional observations from a re-analysis of the deposited data

Results flagged for a closer look

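In 12 of 51 groups of 6 mice with counts of a family, 1 mouse stood apart from the others (Dixon's criterion at 95%). The criterion's rate of 1 in 20 is for normal values. These shares are skewed, with many at 0, so the number is a description only. Among the 12, groups with counts in 1 mouse only meet the criterion by construction. The values were shares of all counts. Christensenellaceae had 0.189% in tyrosol mouse 2 and 0.0454% in hydroxytyrosol mouse 4. [Mogibacteriaceae] had 0.261% in model mouse 3 and 0.662% in salidroside mouse 4. Eubacteriaceae had 0.516% in hydroxytyrosol mouse 3 and 0.0108% in control mouse 5, the latter from 8 counts. Veillonellaceae had 0.228% in salidroside mouse 1, and unclassified_Clostridiales had 0.688% in tyrosol mouse 1. The other values came from 4 to 7 counts in the only positive mouse of a group, with 0.00794% for Clostridiaceae in tyrosol mouse 6, 0.00649% for Peptococcaceae in model mouse 2, 0.00454% for Peptococcaceae in tyrosol mouse 6 and 0.0038% for Syntrophomonadaceae in tyrosol mouse 2. Christensenellaceae had a log2 change of -4.27 in salidroside against tyrosol mice (edgeR adjusted p = 0.0314), and the family reached the count filter there through the tyrosol mice only. It did not pass without the count filter (adjusted p = 0.0942), with all 30 mice in 1 edgeR model (adjusted p = 0.0619) or in 7 of the 12 edgeR fits that left out 1 mouse. The exact permutation test gave adjusted p = 0.106, from p = 0.0022, the smallest that 6 against 6 mice allow. With the filter it passed in DESeq2 (adjusted p = 8.41e-05), on centred log-ratios with limma (adjusted p = 0.00277) and in edgeR on the rarefied table (adjusted p = 0.00888). The direction was the same in all of these fits.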

How the results depend on the processing

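Among the counts of calls and the differences in summed share recomputed under the alternatives, 242 values stayed within 1.5 times (counts) or moved by less than 1 SD between mice (shares), and 50 did not. A count of 0 in both fits was taken as unchanged, so the 242 say little where 0 members passed. Of the log2 changes of single taxa under the same alternatives, 174 kept their direction and side of the threshold, 16 lost the call, 15 gained it and 1 reversed. A change without an adjusted p was counted as kept if its direction held. The counts of member taxa called in edgeR that moved were as follows, each with the share of all taxa of that level called in the same comparison and setting. With a replicate block 0 families (6.9%) and 0 genera (11.3%) passed in model against control, 0 families (0%) in salidroside against tyrosol, 0 genera (0.971%) in tyrosol against model, 0 ASVs (3.41%) in model against control and 1 ASV (4.25%) in tyrosol against model, and Veillonellaceae in tyrosol against model reversed to -0.79. Clostridiaceae in model against control came to adjusted p = 0.14 there and Christensenellaceae in salidroside against tyrosol to 0.152. Without a count filter 2 families (8.28%) passed in model against control, 1 (4.07%) in tyrosol against model, 0 (0%) in salidroside against tyrosol and 1 (2.7%) in hydroxytyrosol against tyrosol, 2 genera (3.51%) in tyrosol against model and 1 (5.57%) in hydroxytyrosol against model, and 0 ASVs in each comparison (0% to 0.197%). In model against control the 3 genera without the filter included Pseudoramibacter_Eubacterium and not Clostridium. With at least 50 counts 0 families (0%) passed in salidroside against tyrosol, 0 genera in model against control (31.7%) and in tyrosol against model (1.64%), 3 genera across the 5 groups (45.1%), and 0 ASVs (2.21% to 31.5%). With all 30 mice in 1 model 2 families (31%) passed in model against control and 0 (0%) in salidroside against tyrosol. DESeq2 called 2 families (30.8%) in model against control and 1 each in tyrosol against model (14.8%), hydroxytyrosol against tyrosol (18.9%) and salidroside against hydroxytyrosol (6%), and 1 genus (5.95%) and 1 ASV (1.35%) in salidroside against tyrosol. Centred log-ratios gave 2 families (10%) in tyrosol against model, 1 (2%) in salidroside against hydroxytyrosol, 1 genus (1.09%) and 1 ASV (0.761%) in salidroside against tyrosol and 3 ASVs (39%) in hydroxytyrosol against model. The exact permutation test gave 1 family (6.67%) in tyrosol against model, 0 (0%) in salidroside against tyrosol, 1 genus (6.19%) in model against control and 0 (0%) in tyrosol against model. The rarefied table gave 1 family (2.5%) in salidroside against hydroxytyrosol, 1 genus (2.47%) in salidroside against tyrosol and 0 ASVs in tyrosol (6.75%) and in hydroxytyrosol (36.5%) against model. In salidroside against tyrosol 1 ASV passed without Acinetobacter (1.91%) and with adjustment over the 3 compound pairs (3.05%). The cause of these differences was not tested.

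Without Acinetobacter the difference in summed share (percentage points) was -0.303 in model against control (-0.768 with it), -0.0352 in salidroside against model (0.159), 1.63 in tyrosol against model (0.791), -0.203 in hydroxytyrosol against model (0.348), -1.67 in salidroside against tyrosol (-0.632), -1.84 in hydroxytyrosol against tyrosol (-0.443) and 0.168 in salidroside against hydroxytyrosol (-0.189). Leaving out each mouse in turn the same differences, in this order, ranged from -0.949 to -0.490, 0.0585 to 0.238, 0.526 to 0.951, 0.247 to 0.424, -0.791 to -0.366, -0.602 to -0.177 and -0.290 to -0.0874, and 0 to 2 families (12.1% to 42.1% of all families), 2 to 3 genera (10.5% to 35.8%) and 0 to 1 ASVs (14.3% to 50.7%) passed in model against control, 0 to 1 families (0% to 2.17%) and genera (0% to 1.14%) in salidroside against tyrosol, 1 to 2 ASVs (5.44% to 10.8%) in tyrosol against model, 0 to 1 ASVs in hydroxytyrosol against model (16.1% to 48.3%) and in salidroside against hydroxytyrosol (2.09% to 17.4%), and 4 to 6 families (37% to 55.6%) and 5 to 9 genera (36.2% to 51.4%) across the 5 groups. Unidentified Veillonellaceae, ASV_15190, unidentified Peptostreptococcaceae and ASV_7890 rested on 4 mice with at least 10 counts and could not be tested without any of these. The scaling moved the median change over all families, from 0.60 to -0.16 without TMM in model against control and from -1.07 to -0.46 in tyrosol against model. Mice with the same title number did not deviate together (median correlation -0.0212, over 0.1 in 16 of 60 pairs), so the title numbers were not taken as pairs. Pairing by the numbers of the count columns was not tested.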
